A study of Homo sapiens with 4 samples.

Results

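The 39 human HOX genes lie in 4 clusters, HOXA on chromosome 7, HOXB on chromosome 17, HOXC on chromosome 12 and HOXD on chromosome 2. Every peak of TAF3, H3K4me3 or RNAPII that overlapped the hg19 segment of a cluster is described here. The segments were chr7:27130000-27250000 (HOXA, 11 genes), chr17:46604000-46812000 (HOXB, 10 genes), chr12:54330000-54452000 (HOXC, 9 genes) and chr2:176955000-177057000 (HOXD, 9 genes). They held 131 of the 97318 peaks in the 3 full lists, of which 33 of 17887 were TAF3 peaks, 38 of 17975 were H3K4me3 peaks and 60 of 61456 were RNAPII peaks. Each peak was taken by its position in a segment, whatever its tags or fold enrichment.

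The libraries came from HCT116, an established human colorectal carcinoma cell line, grown as a monolayer with no treatment named, at passages 15 to 18 per the labels. Chromatin was fixed for 10 min in 1% formaldehyde and immunoprecipitated with a polyclonal antiserum to residues 290 to 389 of human TAF3, with the Abcam antibody ab8580 to H3K4me3, or with the N-20 antibody sc-899 to RNAPII, and input DNA served as the shared control. Each antibody has 1 library, so no value below has a replicate, and no test between conditions exists. The peaks rested on 17411155 TAF3 tags, 16841238 RNAPII tags and 12560129 H3K4me3 tags left after duplicates were removed, and the input kept 19185386. The identity of the line was not checked against marker genes here.

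HOX genes encode homeodomain transcription factors that give cells their position along the body axis, and their order on the chromosome follows the order in which they are used from head to tail. Genes with the same number in different clusters are paralogs, and genes of group 13, at the 5′ end of each cluster, are known for their use in the hindgut. Trimethylation of histone H3 at lysine 4 (H3K4me3) marks active promoters and is placed on HOX clusters by Trithorax-group complexes, while Polycomb complexes silence the same clusters in other cells. TAF3 belongs to TFIID, a general transcription factor, and binds H3K4me3 through its PHD finger, while TFIID helps to recruit RNA polymerase II (RNAPII) to promoters.

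In HOXA and HOXB the low-numbered genes lie at the low coordinates, while in HOXC and HOXD the low coordinates hold group 13. The gene tables used here are on GRCh38.p14, another build than that of the peaks, so no peak is tied to a single gene, and only gene order was taken from them. To show the kind of DNA at the ends of the clusters, the 250 bases before the transcription start are printed for 4 genes that are the outermost in their clusters, read 5′ to 3′ on the gene's own strand from RefSeq on GRCh38.p14, with every CG in capitals.
HOXA13 (chromosome 7, minus strand): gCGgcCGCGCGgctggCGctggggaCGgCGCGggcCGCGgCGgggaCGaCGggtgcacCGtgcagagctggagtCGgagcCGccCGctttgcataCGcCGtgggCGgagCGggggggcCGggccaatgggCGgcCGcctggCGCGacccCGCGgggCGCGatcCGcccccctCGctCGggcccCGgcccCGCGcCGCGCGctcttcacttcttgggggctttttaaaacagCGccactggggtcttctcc
HOXB1 (chromosome 17, minus strand): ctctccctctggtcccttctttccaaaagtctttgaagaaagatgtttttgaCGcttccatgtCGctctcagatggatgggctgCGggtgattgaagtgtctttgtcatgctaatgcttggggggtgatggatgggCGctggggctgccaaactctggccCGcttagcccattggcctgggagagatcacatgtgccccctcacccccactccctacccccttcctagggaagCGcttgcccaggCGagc
HOXD13 (chromosome 2, plus strand): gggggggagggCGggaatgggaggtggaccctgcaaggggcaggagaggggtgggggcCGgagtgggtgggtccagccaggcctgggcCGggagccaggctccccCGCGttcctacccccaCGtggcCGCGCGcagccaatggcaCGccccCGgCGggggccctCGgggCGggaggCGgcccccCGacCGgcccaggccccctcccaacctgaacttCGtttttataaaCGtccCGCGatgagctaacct
HOXD1 (chromosome 2, plus strand): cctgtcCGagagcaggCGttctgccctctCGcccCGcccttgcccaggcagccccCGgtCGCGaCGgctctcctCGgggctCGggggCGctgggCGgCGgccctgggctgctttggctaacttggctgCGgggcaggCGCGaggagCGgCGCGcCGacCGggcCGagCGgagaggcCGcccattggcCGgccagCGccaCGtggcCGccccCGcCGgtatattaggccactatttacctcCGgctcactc
They hold 40 CG dinucleotides for HOXA13, 7 for HOXB1, 21 for HOXD13 and 31 for HOXD1, where the median over 35116 promoter windows of the same length was 11. HOXB1 was below that median and the other 3 genes were above it. The letters TATAAA, searched on both strands, were found in the HOXD13 window 27 bases before the start, and in 10.7% of all windows. Of the 39 HOX genes 20 had an entry in the promoter table, which is too few for a statement on the family.

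HOXA and HOXB were densely covered by all 3 marks, HOXC less, and HOXD least. TAF3 peaks covered 22.5% of the bases of the HOXA segment, 13.5% of HOXB, 6.74% of HOXC and 4.03% of HOXD. For H3K4me3 the shares in the same order were 30.8%, 16.1%, 11.4% and 7.45%. RNAPII peaks covered 34.5% of HOXA, 37.1% of HOXB, 13.3% of HOXC and 5.33% of HOXD. Over the 552 kb of the 4 segments together, TAF3 peaks covered 12.2%, H3K4me3 peaks 16.7% and RNAPII peaks 25.4%. In flanks of the same length on both sides of each segment, 1104 kb in all, the shares were 1.15%, 2.01% and 5.48%.

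**Figure D1:**
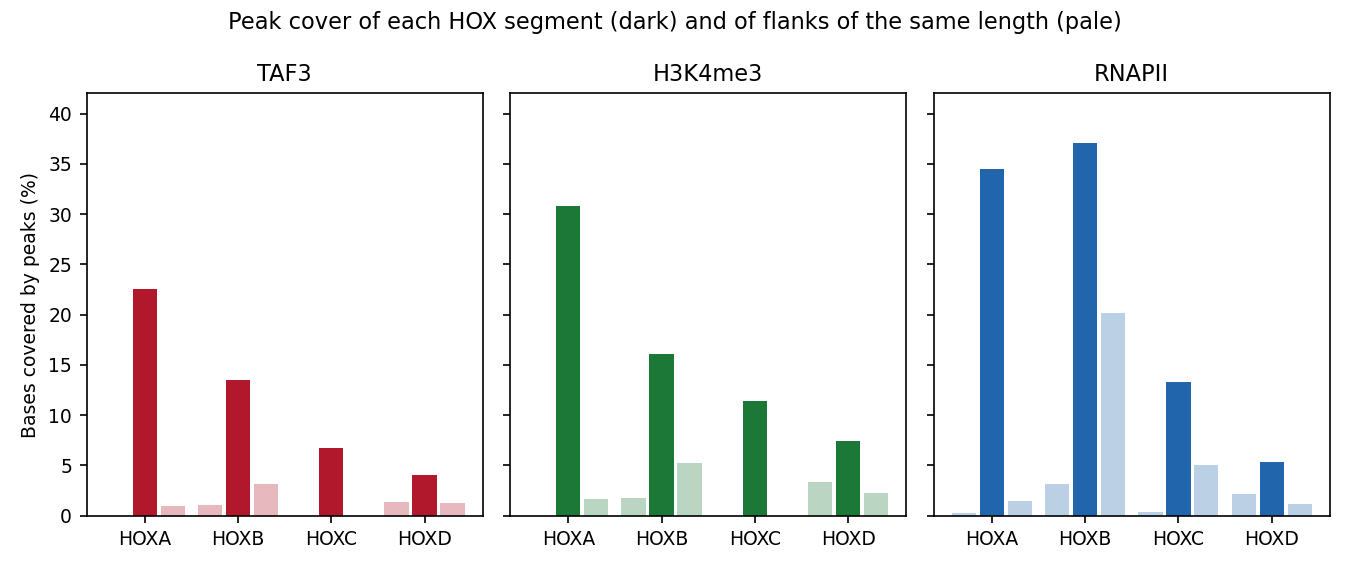
Share of bases covered by peaks of the full lists (y axis, percent) in each HOX segment (dark bars) and in the flank of the same length below and above it (pale bars to the left and right). TAF3 cover fell from 22.5% in HOXA to 4.03% in HOXD, and the highest cover of any flank is the 20.2% of RNAPII in the upper flank of HOXB, where the segment has 37.1%.

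The flanks differed between clusters. Both flanks of HOXC held 0 TAF3 and 0 H3K4me3 peaks, so peaks of both kinds were confined to the segment over that span. RNAPII had 1 peak in the lower flank of HOXC and 4 in the upper flank, of up to 24.8-fold. The lower flank of HOXA likewise held 0 TAF3 and 0 H3K4me3 peaks, and 1 RNAPII peak. The upper flank of HOXB held 4 TAF3 peaks of up to 81.9-fold and 6 H3K4me3 peaks of up to 153-fold enrichment, and RNAPII covered 20.2% of it. Each flank of HOXD held 1 TAF3 peak, of 64.6-fold in the lower and 48.0-fold in the upper flank. The highest H3K4me3 peaks in those flanks, 223-fold and 190-fold, exceeded every H3K4me3 peak inside the HOXD segment, where the highest was 114-fold.

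Tags in peaks per kb of segment gave the same order of clusters for TAF3 and H3K4me3. TAF3 had 27.8 tags per kb in HOXA (95% exact Poisson interval 26.9 to 28.8), 18.7 in HOXB (18.2 to 19.3), 7.07 in HOXC (6.60 to 7.55) and 3.57 in HOXD (3.21 to 3.95). H3K4me3 had 69.6 in HOXA, 49.8 in HOXB, 27.6 in HOXC and 10.5 in HOXD. RNAPII was slightly higher in HOXB, at 55.5 (54.5 to 56.5), than in HOXA, at 52.3 (51.0 to 53.6), with 18.1 in HOXC and 7.35 in HOXD. These intervals cover counting error in 1 library and not the spread between cultures, and amplified reads without molecular identifiers are not independent molecules. The tags were also not corrected for input. Median RNAPII fold enrichment over input was 8.99 in HOXB and 28.6 in HOXA, or 70.0 and 70.8 among filtered peaks. By summed width HOXB came before HOXA for TAF3, with 28.1 kb against 27.0 kb of peaks.

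**Figure D2:**
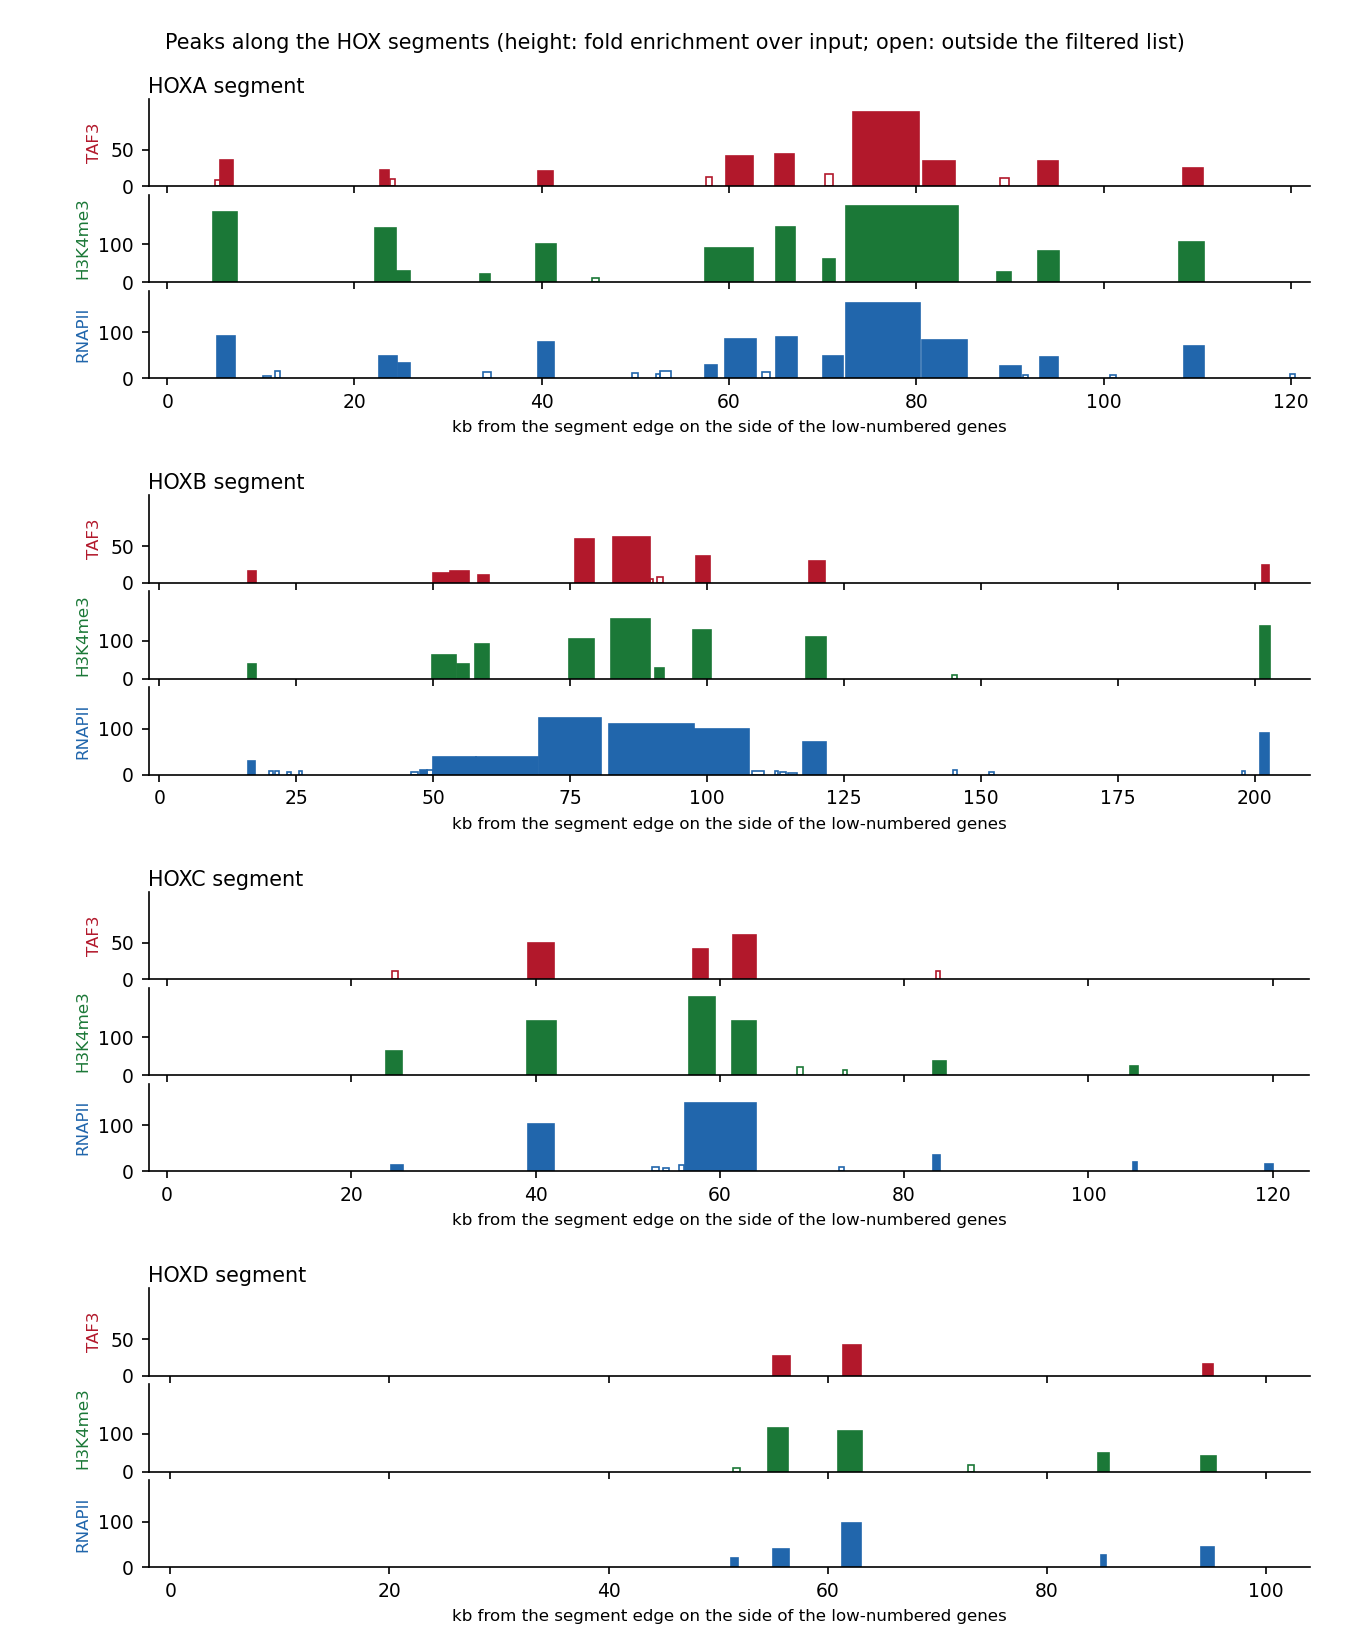
Peaks of the full lists along the 4 segments. The x axis is the distance in kb from the segment edge on the side of the low-numbered genes, bar height is fold enrichment over input, bar width is peak width, and open bars lie outside the authors' filtered list. In HOXB RNAPII fills most of the stretch from 46.0 to 121.6 kb, and in HOXD the first 51.2 kb are empty.

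The longest stretches without a peak of any kind lay in HOXD, HOXB and HOXC. In HOXD, chr2:177005838-177057000 held no peak over 51.2 kb, the end next to HOXD1. In HOXC the 23.8 kb at chr12:54428232-54452000, the end of the low-numbered genes, held none. HOXB had gaps of 45.2 kb (chr17:46756412-46801621) and 23.1 kb (chr17:46725637-46748720), both toward HOXB13. In the annotation's gene order HOXB13 is separated from HOXB9 by 9 other genes, among them MIR196A1, PRAC1 and PRAC2. In HOXA no gap exceeded 10.1 kb.

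Each TAF3 peak in the HOX clusters lay on H3K4me3 and on RNAPII. By at least 1 bp, all 33 TAF3 peaks overlapped H3K4me3 in the full lists (95% Wilson interval 89.6 to 100%), where 86.6% of all TAF3 peaks did. All 33 also overlapped an RNAPII peak (89.6 to 100%), where 97.4% of all TAF3 peaks did, and 86.0% of all TAF3 peaks had both partners. Among the 24 TAF3 peaks in the filtered list, which keeps peaks above 5-fold with a false discovery rate below 5%, 24 overlapped a filtered H3K4me3 peak (98.0% over the list) and 24 a filtered RNAPII peak (99.5% over the list). Of these 4 shares, only that for H3K4me3 in the full lists had an interval above the share of its list. Wilson intervals here and below treat peaks as separate, though they share a cluster and in part a partner peak.

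The authors' filter kept 24 of the 33 TAF3 peaks (72.7%), 32 of the 38 H3K4me3 peaks (84.2%) and 33 of the 60 RNAPII peaks (55.0%), and 65.8%, 79.5% and 40.7% of the whole lists. The RNAPII interval, 42.5 to 66.9%, lay above the share of its list, and the other 2 included theirs. The 9 TAF3 peaks that did not pass had 5.31-fold to 16.6-fold enrichment and 17 to 62 tags, so each exceeded the fold limit and missed that on the false discovery rate, which ran from 5.89% to 43.8%.

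Fold enrichment, the authors' ratio of signal at a peak to the local background expected from input, was near that of the list for TAF3 in the HOX clusters. The median over the 33 TAF3 peaks was 24.9, and 24.4 over the whole list. For H3K4me3 it was 72.9, below the 103.5 of its list, and for RNAPII it was 17.5, above the 12.0 of its list. Above the median of the list stood 17 of 33 TAF3 peaks (50.0% of the list), 15 of 38 H3K4me3 peaks (50.0%) and 37 of 60 RNAPII peaks (48.2%, with ties at the median). Among the 25.0% of each list with the highest fold enrichment were 6 of 33, 4 of 38 and 26 of 60. With filtered peaks alone the medians were 34.3 (TAF3, list 36.1), 97.2 (H3K4me3, list 126.1) and 49.2 (RNAPII, list 44.8). Peaks of at least 100-fold were 1 of 33 for TAF3 (1.96% of the list), 16 of 38 for H3K4me3 (51.5%) and 6 of 60 for RNAPII (10.8%).

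**Figure D3:**
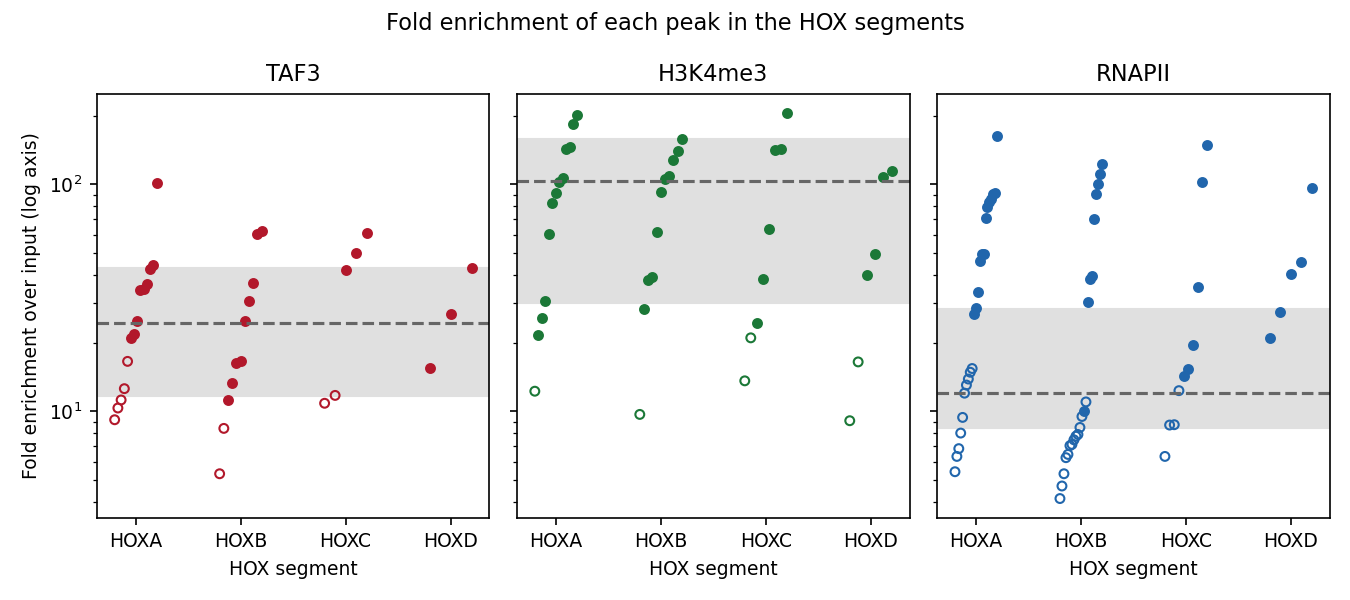
Fold enrichment over input (y axis, log scale) of each peak by cluster, with filled points for peaks in the filtered list and open points for others, ordered by value within a cluster. The dashed line is the median of the whole list and the grey band spans the quartiles. Of the 33 TAF3 points 17 lie above the list median of 24.4, and the HOXD H3K4me3 points end at 114.

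The 14 TAF3 peaks of HOXA were led by a broad site on the group 13 side of its middle. The strongest was chr7:27203262-27210297, with 1370 tags (1298 to 1445) and 102-fold enrichment over 7036 bp. By width it ranked 2 and by tags 8 among 17887 TAF3 peaks. Directly beside it lay chr7:27210695-27214170 with 364 tags and 34.6-fold enrichment. Both fell within 1 H3K4me3 peak, chr7:27202470-27214448, of 11979 bp, 3248 tags and 201-fold enrichment. This H3K4me3 peak was the second widest of 17975 and ranked 4 by tags, and 1 other peak of that list exceeded 10 kb. RNAPII had 163.7-fold enrichment and 1827 tags at chr7:27202513-27210384, and 83.3-fold with 949 tags at chr7:27210644-27215391. The 3 summits lay close together here, with that of TAF3 9 bp from that of RNAPII and 93 bp from that of H3K4me3.

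To the low-coordinate side of this site, HOXA had TAF3 peaks of 44.2-fold (258 tags, chr7:27194924-27196897) and 42.2-fold (387 tags, chr7:27189635-27192548). The first overlapped an H3K4me3 peak of 145-fold and RNAPII of 90.7-fold. The second shared an H3K4me3 peak of 5197 bp and 91.5-fold with a weak TAF3 peak of 12.6-fold and 26 tags at chr7:27187575-27188210. A TAF3 peak of 16.6-fold and 45 tags at chr7:27200209-27201083, next to the broad site, lay outside the filter.

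Other HOXA peaks lay farther from the broad site. At chr7:27152727-27153684 TAF3 had 60 tags and 22.0-fold, with a companion of 17 tags and 10.3-fold at chr7:27153792-27154309, under 143-fold H3K4me3. At chr7:27169643-27171175 it had 103 tags and 21.1-fold under H3K4me3 of 102-fold. Toward HOXA13 came chr7:27218935-27219942 (47 tags, 11.2-fold), chr7:27223008-27225102 (310 tags, 34.1-fold) and, as the outermost, chr7:27238495-27240618 (176 tags, 24.9-fold), which carried 107-fold H3K4me3 and 70.8-fold RNAPII.

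The 11 TAF3 peaks of HOXB were wide and had a lower median fold enrichment than those of HOXA. Their median fold enrichment was 16.7, against 23.4 in HOXA, and their median width was 2500 bp, where the whole list had 1243 bp. Tags per kb of TAF3 peak went the other way, with 139 in HOXB and 123 in HOXA. The strongest was chr17:46686803-46693559, with 1207 tags (1140 to 1277), 62.3-fold enrichment and 6757 bp, which ranked 4 by width and 17 by tags in the list. The next, chr17:46679891-46683296, had 713 tags and 60.6-fold. Their H3K4me3 peaks were chr17:46686491-46693654, the strongest of HOXB at 158-fold with 2308 tags over 7164 bp, and chr17:46678764-46683321 at 106-fold with 1809 tags. Further toward HOXB13 followed chr17:46702052-46704551 (491 tags, 36.6-fold) under 127-fold H3K4me3 and chr17:46722658-46725579 (607 tags, 30.4-fold) under 109-fold H3K4me3.

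Toward HOXB1 the HOXB peaks of TAF3 were lower. They were chr17:46662174-46664089 (168 tags, 11.2-fold), chr17:46657014-46660478 (214 tags, 16.7-fold), chr17:46654016-46656995 (185 tags, 13.4-fold) and, nearest to the HOXB1 end, chr17:46620225-46621564 (105 tags, 16.4-fold). The peak of 11.2-fold lay under 92.4-fold H3K4me3, a ratio of 8.23 that exceeded those of 91.5% of the TAF3 peaks with both partners. Beside the strongest site were 2 weak peaks outside the filter, chr17:46693590-46694212 (31 tags, 5.31-fold) and chr17:46694913-46695927 (62 tags, 8.41-fold). At the far end, past the gaps, TAF3 had 115 tags and 25.0-fold at chr17:46805413-46806572, with H3K4me3 of 140-fold, the second strongest of the cluster, and RNAPII of 90.8-fold.

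In HOXC the 5 TAF3 peaks formed a strong group of 3 and a weak pair. The group was chr12:54388031-54390559 (336 tags, 60.9-fold), chr12:54410041-54412831 (276 tags, 49.6-fold) and chr12:54393227-54394894 (197 tags, 41.8-fold), and it brought the HOXC median to 41.8-fold, the highest of the 4 clusters. The last of these lay under chr12:54392567-54395311, the strongest H3K4me3 peak of all 4 clusters, with 949 tags and 206-fold enrichment. The other 2 carried H3K4me3 of 143-fold and 141-fold. One RNAPII peak, chr12:54388073-54395752, of 7680 bp, 1244 tags and 149-fold, spanned both neighbouring TAF3 sites, and RNAPII at the third site had 102-fold and 617 tags. The weak pair, chr12:54368063-54368570 (19 tags, 11.8-fold) and chr12:54426872-54427599 (34 tags, 10.9-fold), lay outside the filter, although H3K4me3 there had 38.4-fold and 63.2-fold and passed it. RNAPII at the first of the pair, 35.3-fold, was the third strongest of HOXC.

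At the group 13 end of HOXC the outermost peak was RNAPII alone, chr12:54331925-54332792, with 69 tags and 15.3-fold enrichment and neither TAF3 nor H3K4me3. The next was H3K4me3 at chr12:54346587-54347507, with 60 tags, 24.6-fold and RNAPII of 19.6-fold, and again no TAF3 peak.

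HOXD held 3 TAF3 peaks, all within the filter. They were chr2:176993985-176995631 (136 tags, 42.7-fold), chr2:177000412-177001980 (156 tags, 26.8-fold) and, nearest the HOXD13 end, chr2:176961834-176962730 (72 tags, 15.5-fold). H3K4me3 at these sites had 107-fold, 114-fold and 39.7-fold enrichment, and RNAPII had 96.2-fold, 40.4-fold and 45.4-fold, the 3 highest of the cluster. The third strongest H3K4me3 peak of HOXD, chr2:176971276-176972265 with 90 tags and 49.1-fold, had RNAPII of 27.4-fold and no TAF3 peak. The 39.7-fold H3K4me3 peak, with 157 tags over 1401 bp, was lower in fold enrichment but held more tags, and it did carry TAF3.

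The H3K4me3 peaks without TAF3 in these clusters were weak ones. TAF3 was found at 28 of 38 H3K4me3 peaks (73.7%, 58.0 to 85.0%), where 82.8% of all H3K4me3 peaks had it. By cluster this was 10 of 13 in HOXA, 10 of 11 in HOXB, 5 of 8 in HOXC and 3 of 6 in HOXD. The same 28 also had RNAPII, so 73.7% of the HOX peaks and 82.6% of the list had both partners. In the filtered lists TAF3 was at 23 of 32 (71.9%, 54.6 to 84.4%), where the list had 80.9%. The 28 peaks with TAF3 had 25.7-fold to 206-fold enrichment (median 106) and 92 to 3248 tags. The 10 without had 9.09-fold to 49.1-fold (median 18.8) and 15 to 90 tags, and 4 of them passed the filter. Peaks without TAF3 were weak in the whole list too, with a median of 14.6-fold against 123-fold for those with it. Of the 10, 7 overlapped an RNAPII peak, and the strongest such peak at each had 8.70-fold to 49.3-fold. The RNAPII peak of 49.3-fold, in HOXA, overlapped only the edge of its H3K4me3 peak, with summits 2010 bp apart. Another RNAPII peak there, of 33.4-fold, had its summit 33 bp from that of H3K4me3.

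With all H3K4me3 peaks split into 5 equal groups by fold enrichment, the HOX peaks can be set beside peaks of like strength. In the lowest group, up to 20.7-fold, 0 of 5 HOX peaks had TAF3 (95% Wilson interval 0 to 43.4%), where 40.6% of the list did. In the next, up to 77.0-fold, it was 9 of 14 (38.8 to 83.7%), where the list had 75.7%. In the upper 3 groups TAF3 was present at 9 of 9, 7 of 7 and 3 of 3 HOX peaks, where the list had 97.8%, 99.8% and 100%. Each interval in the 2 lowest groups included the share of the list, so a difference was not detectable with so few peaks.

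**Figure D4:**
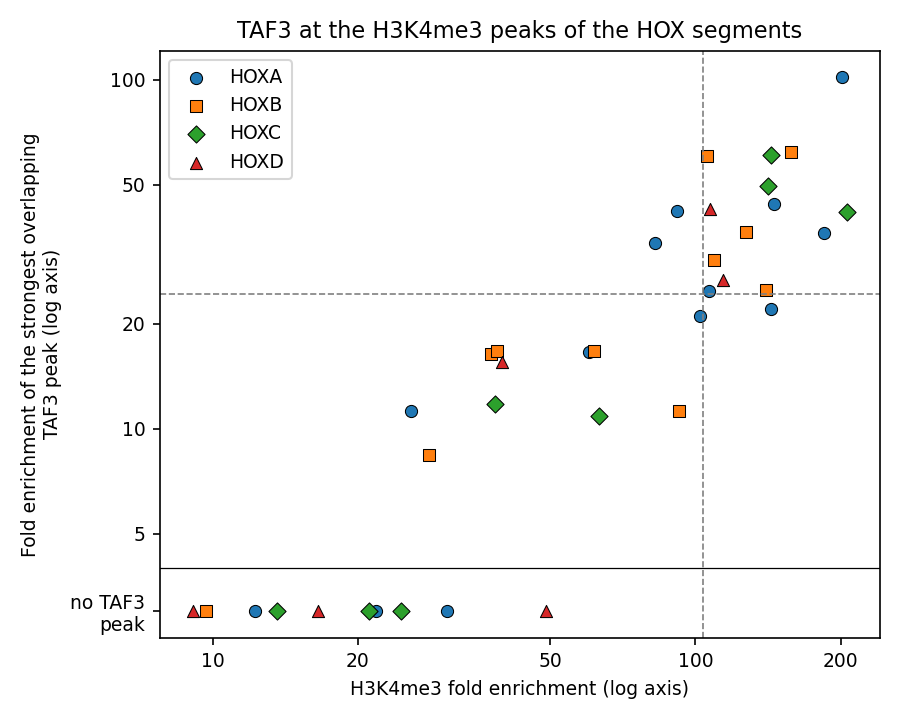
Each H3K4me3 peak of the 4 clusters by its fold enrichment (x axis, log scale) and the fold enrichment of its strongest overlapping TAF3 peak (y axis, log scale), with peaks lacking TAF3 in the strip at the bottom. Dashed lines are the medians of the whole lists, 103.5 for H3K4me3 and 24.4 for TAF3. The 10 peaks in the strip all lie at or below 49.1-fold H3K4me3.

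The balance of H3K4me3 to TAF3 was that of the list. For each TAF3 peak, the fold enrichment of its strongest overlapping H3K4me3 peak was divided by its own, which gave a median of 3.63 over the 33 HOX peaks and 3.66 over the 15390 TAF3 peaks with both partners. The ratio ran from 1.75, at the 60.6-fold TAF3 peak of HOXB, to 29.7, at a weak side peak of HOXB. That side peak overlapped only the edge of a strong H3K4me3 peak shared with a stronger TAF3 peak. Its summit lay outside that H3K4me3 peak and 5898 bp from the H3K4me3 summit. Fold enrichment of TAF3 rose with that of its partners by rank, with Spearman coefficients over the 33 peaks of 0.457 for H3K4me3 and 0.574 for RNAPII, and over the list of 0.676 and 0.783. Across the 24 filtered HOX peaks the values were 0.632 and 0.886, and across the filtered list 0.569 and 0.739. These describe peaks that share an input library and in part a partner peak, and the order of HOX against list turns with the filter.

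H3K4me3 peaks that overlapped at least 2 TAF3 peaks, by at least 1 bp, were 6 of 38 in HOX clusters (15.8%, 7.44 to 30.4%). The share of the list was 5.83%. Of the 6, 4 lay in HOXA and 2 in HOXB. In most of the 6, 1 of the 2 TAF3 peaks lay outside the filter. RNAPII peaks with at least 2 TAF3 peaks were 5 of 60 (8.33%, 3.61 to 18.1%), where 1.78% of the list had as many. Wide peaks made up a larger share of the HOX peaks than of the lists. At least 5 kb was reached by 2 of 33 TAF3 peaks (0.190% of the list), 3 of 38 H3K4me3 peaks (0.762%) and 7 of 60 RNAPII peaks (2.64%). At least 10 kb was reached by 1 of 38 H3K4me3 peaks (0.0111%) and 4 of 60 RNAPII peaks (0.514%), all 4 in HOXB. The Wilson intervals, such as 1.68 to 19.6% for wide TAF3 peaks and 2.62 to 15.9% for the RNAPII peaks of 10 kb, lay above the shares of the lists, and they treat neighbouring peaks as separate though these share a cluster.

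In the full list HOXB carried an almost unbroken run of RNAPII. With peaks joined across gaps of up to 2000 bp, 13 RNAPII peaks formed a run at chr17:46650006-46725636 that spanned 75.6 kb, of which 91.8% was covered, with 10913 tags. By covered length (69.4 kb) it ranked 11 among 32381 such runs. It held 9 of the 11 TAF3 and 8 of the 11 H3K4me3 peaks of HOXB. Runs were joined from the full list, so this one includes peaks outside the filter. From chr17:46711663 to chr17:46721557 it rested only on such peaks, of 4.13-fold to 7.91-fold enrichment. The widest of its peaks, chr17:46686063-46701595, had 15533 bp, 2993 tags and 111-fold enrichment, and it covered 3 TAF3 peaks. On its sides lay chr17:46673236-46684668, with the highest RNAPII fold enrichment of HOXB (123-fold, 1907 tags), and chr17:46701619-46711663 with 100.3-fold and 2174 tags. With joins across at most 500 bp the longest run covered 34.1 kb, and it ranked 33. In HOXA the longest run spanned 15.3 kb at chr7:27200053-27215391, over the broad H3K4me3 site, and in HOXC it spanned 11.3 kb at chr12:54388073-54399325. With joins across up to 5000 bp the HOXA run grew to 13 peaks over 45.5 kb at chr7:27179672-27225179, of which 64.5% was covered, and the longest runs of HOXB and HOXC kept their bounds.

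A larger share of the RNAPII peaks lay on H3K4me3 in the HOX clusters than in the list. The count was 36 of 60 (60.0%, 47.4 to 71.4%), where 29.4% of all RNAPII peaks did, and 28 of 60 (46.7%, 34.6 to 59.1%) overlapped TAF3, where 27.2% did. In the filtered lists the shares were 30 of 33 (90.9%, 76.4 to 96.9%) for H3K4me3, where the list had 54.6%, and 22 of 33 (66.7%, 49.6 to 80.2%) for TAF3, where the list had 46.2%. RNAPII overlapped neither at 24 of 60 (40.0%, 28.6 to 52.6%), and 67.6% of the list were such peaks. Those 24 had 4.13-fold to 15.4-fold enrichment and 12 to 98 tags, and 2 of them passed the filter. None of the 24 lay in HOXD. From the other side, 35 of 38 H3K4me3 peaks had RNAPII (92.1%, 79.2 to 97.3%), where 93.4% of the list did.

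The median distance between TAF3 and RNAPII summits was larger in the HOX clusters than in the list. For each TAF3 peak the summit of the RNAPII peak of highest fold enrichment that overlapped it was taken. It was 369 bp over the 33 HOX peaks (quartiles 69 and 843 bp) and 50 bp over 15390 TAF3 peaks (17 and 208 bp). The median was 875 bp in HOXB, 168 bp in HOXA, 127 bp in HOXC and 232 bp in HOXD, and without HOXB it fell from 369 to 179.5 bp. Within 50 bp were 6 of 33 (18.2%, 8.61 to 34.4%), where 50.0% of the list were. The 6 were 3 in HOXA, 2 in HOXB and 1 in HOXC, and all 6 passed the filter. Without HOXB this share was 4 of 22 (18.2%, 7.31 to 38.5%), and of the 24 filtered peaks 25.0% (12.0 to 44.9%), where 54.2% of the filtered list were. With the nearest RNAPII summit in place of that of the strongest peak, it was again 6 of 33, where 50.2% of the list were.

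The distance to the H3K4me3 summit had a median of 216 bp in the HOX clusters and of 221 bp in the list, and 5 of 33 TAF3 summits (15.2%) lay within 50 bp, where 9.47% of the list did. The TAF3 summit was nearer to the RNAPII than to the H3K4me3 summit at 16 of 33 peaks, where 73.5% of the list were. The RNAPII partner peaks were wider in HOX clusters, with a median of 2215 bp against 1636 bp, and in HOXB 10045 bp, and the largest distance, 6265 bp, was under the widest HOXB peak. The part of this width in the distances was not tested.

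**Figure D5:**
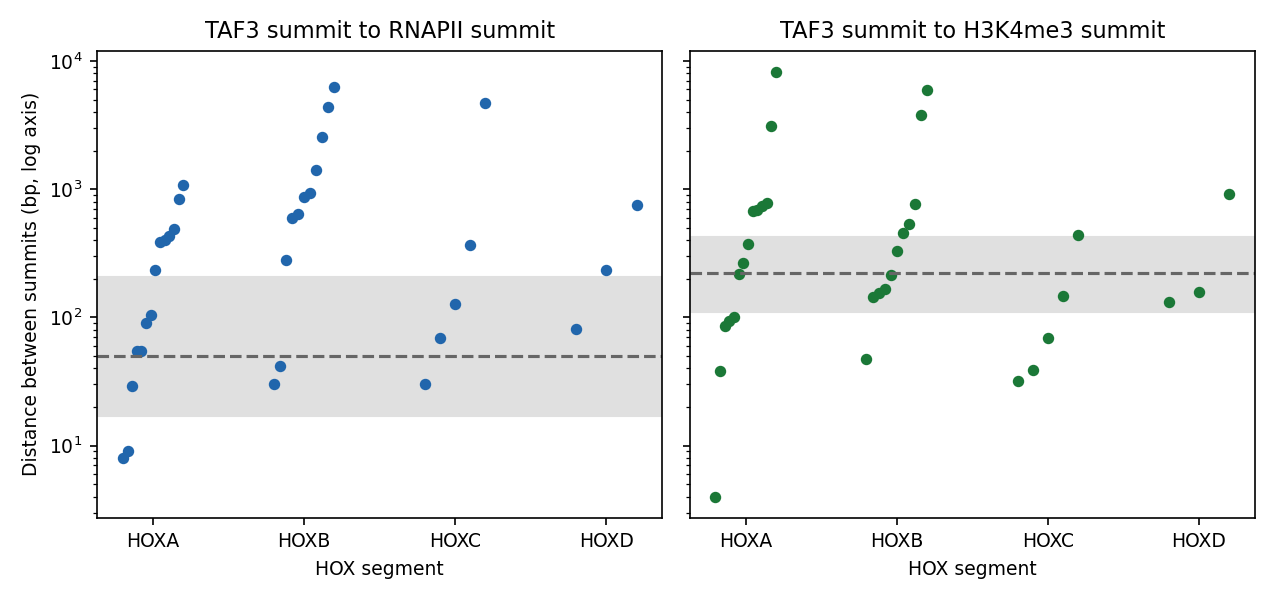
Distance in bp (y axis, log scale) from each TAF3 summit to the summit of its strongest overlapping RNAPII peak (left) and H3K4me3 peak (right) by cluster, 1 point per TAF3 peak. The dashed line is the median over all TAF3 peaks with both partners, 50 bp on the left and 221 bp on the right, and the band runs from the first to the third quartile. Most points on the left lie above the line, while points on the right lie on both sides.

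The segment limits decided few members. RNAPII at chr7:27249894-27250456 (21 tags, 9.40-fold) crossed the HOXA limit, and the H3K4me3 peak it overlapped, chr7:27250042-27250703 (25 tags, 19.6-fold), lay just outside and is not a member. Near HOXD, H3K4me3 at chr2:176944517-176945702 (38 tags, 17.4-fold) and RNAPII at chr2:176944632-176945384 (37 tags, 12.7-fold) lay farther out, though within 10 kb of the limit. None of these 4 peaks passed the filter.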

How the data were processed

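ChIP-seq peak lists for TAF3, H3K4me3 and RNAPII in HCT116 cells, 1 library each, were grouped by sample title. CASAVA 1.8.2, MACS 1.4.2 and the hg19 build are named in the submitters' processing notes, and an aligner is not given in the sources used here. Each antibody was called against the shared input at a p cutoff of 1e-05, with 1 tag at most kept at a position, per the file headers, so the count in a densely covered place is bounded. Redundant tags were 14.2% for TAF3, 40.2% for H3K4me3 and 16.1% for RNAPII.

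Per peak, the authors deposited the whole-number tag count, the fold enrichment over local input (a ratio), a score scaled from the negative log10 of the p-value, and the false discovery rate as a percent. The deposited filtered lists hold exactly the peaks above 5-fold with a false discovery rate below 5%. Scores were used for checks alone.

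Computed here were overlaps of at least 1 bp, covered bases, ranks within a list, summit distances and runs of peaks. Shares of peaks have Wilson 95% intervals, tags have exact Poisson 95% intervals, and median fold enrichment has 95% intervals from binomial ranks. With 1 library per antibody no test was made, and peaks are not replicates. Background shares are over the whole list. In full are named every TAF3 peak and, per cluster and list, the 3 peaks of highest fold enrichment, apart from 1 HOXA site that is not reported here. The segments, members and comparisons were chosen with earlier results of these data known. Promoter windows came from RefSeq on GRCh38.p14 (20 of 39 genes, 27 entries), and no coordinates were moved between builds. Overlap code was tested on simulated lists and, with the real lists, against bedtools (24 of 24 checks passed in all). Calculations ran in Python 3.11.15 with pandas 2.3.3, statsmodels 0.14.6, numpy 2.4.6 and scipy 1.17.1, and figures in matplotlib 3.10.9.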

Additional observations from a re-analysis of the deposited data

How the results depend on the processing

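Of 86 alternative values, 69 counted as unchanged, among them all 6 for the share of H3K4me3 peaks with TAF3 and all 12 for segment cover. The rule was broad. A drop from 33 to 24 TAF3 peaks counted as unchanged, and so did shares inside the interval of the reported share. For segment cover the only alternative was the filtered list, and intervals were wide, as with 1.60 to 9.80% for TAF3 in HOXD. TAF3 and RNAPII cover of HOXD could not change, because all their peaks there pass the filter. The number of RNAPII peaks was 33 in the filtered list and 39 at 10-fold or more, where fewer peaks enter by construction. RNAPII median fold enrichment was then 49.2 in the filtered list, and the share of RNAPII peaks on H3K4me3 was 90.9% in the filtered lists and 79.5% at 10-fold or more. When overlap required the other summit inside the peak, H3K4me3 with RNAPII gave 78.9%, TAF3 with H3K4me3 84.8% and TAF3 with RNAPII 78.8%. By summed width HOXB ranked 1 and HOXA 2 for TAF3. By highest fold enrichment HOXC ranked 1, HOXA 2 and HOXB 3 for H3K4me3, and HOXA ranked 1, HOXC 2 and HOXB 3 for RNAPII. With gaps of up to 500 bp the HOXB run of RNAPII covered 34.1 kb. The cause of these shifts was not tested further. The alternatives on summit distance and run gaps were chosen after seeing the data. No paired analysis was possible because each antibody has 1 library, and for the same reason no library could be left out in turn. Depth limits what can be said of the weakest member peaks, which hold as few as 12 tags.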
